A study of Homo sapiens with 6 samples.

Results

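The 51 genes described here encode the actins, the proteins that bind and organise actin filaments, and serum response factor (SRF) with its actin-regulated co-activators. They are 51 of the 47432 genes in the expression tables, and all 51 were found by their symbols. They were selected on knowledge of their biology and with measured values of the contrast below already known, in particular the lower exon reads of ACTB, a gene often used as a reference. Their values are therefore a description. The calls given for them below are taken from fits over all genes, were known in part when the genes were chosen, and support nothing as a test. The lists of other genes set beside them were also chosen with earlier results of these data known. Their counts and adjusted P values are likewise a description. RNA-seq had been performed on LOX-IMVI, a human melanoma cell line that expresses the nuclear co-regulator IκBζ, the product of NFKBIZ. Cells transduced with a lentiviral pLKO.1 construct that carries a short hairpin RNA (shRNA) against NFKBIZ (shNFKBIZ) were compared with cells that carry the control construct (shCtrl). Both groups were selected with puromycin, both were kept in the same serum-containing medium, and 1 hairpin against NFKBIZ was used, so that effects of this hairpin on other genes cannot be told apart from those of NFKBIZ. Each group had 3 libraries, which the study describes as independent experiments.

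Actin exists as a monomer and as a filament. Monomers are bound by thymosins and profilin, filaments are started by the Arp2/3 complex, bundled by fascin and α-actinin, severed by cofilin and gelsolin, and pulled by myosin II. The transcription factor SRF binds CArG boxes in the promoters of many of these genes, and its co-activators MRTFA and MRTFB are held outside the nucleus by free actin monomers. By this route the state of actin feeds back on the genes that encode actin and its partners. In melanoma cells the actin cytoskeleton carries cell shape and invasion.

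The libraries held 22264473 to 24624839 total exon reads. The targeted gene NFKBIZ (hg38, chr3:101827991-101861022, on the plus strand) was lower in every shNFKBIZ library, at 13.7, 14.1 and 13.3 TPM (transcripts-per-million, reads per exon length scaled to the same total in each library) against 41.4, 42.9 and 49.2. Of 8 melanocyte and pigment markers, 5 had at most 3 reads in every library and the summed level was at most 4.23 TPM. SOX10 was listed at 0. MITF, at 3.21 TPM in shCtrl, was lower in shNFKBIZ cells (log2 fold change -0.77, SE 0.131, adjusted P 2.55e-05, edgeR). Pigment cell identity was thus poorly marked in these melanoma cells, while 5 genes of the undifferentiated melanoma state summed to 558 to 585 TPM in shCtrl and 893 to 903 TPM in shNFKBIZ. Of these 5, NGFR had at most 3 reads in every library, and AXL alone held 407 TPM in shCtrl and 486 TPM in shNFKBIZ. All 5 smooth muscle markers had at most 3 reads in every library. Markers of fibroblasts summed to 32.2 to 35.0 TPM in shCtrl and 19.2 to 21.6 TPM in shNFKBIZ, with 1 of 5 at no more than 3 reads, while the members went both ways, with COL1A1 at 31.0 and 8.85 TPM and PDGFRA at 2.65 and 11.6 TPM. Keratinocyte markers summed to 60.0 to 72.1 TPM in shCtrl and 73.1 to 80.7 TPM in shNFKBIZ. KRT10 alone held 66.2 and 74.3 TPM and KRT14 held 0.570 and 1.59 TPM. The third, KRT5, had at most 3 reads in every library. For endothelium 3 of 3 and for leukocytes 3 of 4 markers were at this floor. The part of any of these in the values below was not tested, and in bulk RNA fewer cells of a type cannot be told apart from less RNA per cell.

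The promoters of the set were examined for CArG boxes, the letter pattern that SRF binds (CC, 6 bases that are A or T, then GG, the same on both strands). RefSeq promoter windows from 250 bases before to 50 bases after a start site (GRCh38.p14) were given for 45 of the 51 genes. A CArG box was found for 8 of them, or 17.8%, against 1.6% of the 27305 genes with a window. These genes are named as SRF-dependent partly because such boxes are known in them, so the share describes the set and is not independent of how it was chosen. With 1 mismatch allowed among the 6 bases the shares were 31.1% and 9.88%. The boxes of ACTG1, FLNA, ACTN1 and TPM4 are shown because their exon reads were lower in shNFKBIZ cells, those of CNN2 and FHL2 because theirs were higher, and those of SRF because SRF also binds its own promoter. Each line runs 5′ to 3′ along the gene's strand with the box in capitals and up to 30 bases on each side, and no base after the start site.
ACTG1: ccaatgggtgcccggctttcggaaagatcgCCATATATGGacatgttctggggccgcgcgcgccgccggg
FLNA: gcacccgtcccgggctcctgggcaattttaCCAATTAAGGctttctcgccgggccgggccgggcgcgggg
ACTN1: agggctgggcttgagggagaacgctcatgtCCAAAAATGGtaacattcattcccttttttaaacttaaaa
TPM4: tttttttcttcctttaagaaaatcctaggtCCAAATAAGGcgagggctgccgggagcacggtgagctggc
CNN2: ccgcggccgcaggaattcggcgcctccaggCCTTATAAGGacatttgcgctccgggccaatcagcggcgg
FHL2: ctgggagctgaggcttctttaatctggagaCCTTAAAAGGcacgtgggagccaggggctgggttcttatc
SRF: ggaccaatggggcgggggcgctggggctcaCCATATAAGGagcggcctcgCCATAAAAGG

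The stretches lie at chr17:81512854-81512923 (ACTG1, minus strand), chrX:154374689-154374758 (FLNA, minus), chr14:68977698-68977767 (ACTN1, minus), chr19:16067335-16067404 (TPM4, plus), chr19:1026489-1026558 (CNN2, plus), chr2:105438575-105438644 (FHL2, minus) and chr6:43171209-43171268 (SRF, plus). The boxes of ACTG1, ACTN1 and TPM4 lie in introns of longer transcripts of the same gene in GENCODE release 44, those of CNN2, FHL2 and SRF lie outside the gene body, and that of FLNA overlaps an exon of an unnamed non-coding RNA on the opposite strand. The ACTG1 box begins 94 bases before its start site, the FLNA box also 94, the CNN2 box 89 and the FHL2 box 85. The boxes of SRF begin 30 and 10 bases before the start. A further FHL2 box lies 59 bases before another start site and a box of FHL1 lies in an intron, and these are not shown. Among the 7 genes with a box that could be tested for expression, 4 were lower, 2 were higher and 1 was not called, with a median log2 fold change of -0.21. Among the other 38 members tested, 18 were lower, 12 were higher and 8 were not called, with a median of -0.10. The 38 are not all genes without a box, as 40 of the 45 tested members had a window. ACTB, TAGLN, ARPC1B, FSCN1 and PDLIM2 are among the 38 and were not searched. ACTA2, ACTN4, CALD1, MYL12A and ZYX are also among them and had a box when 1 mismatch was allowed. Carrying a box did not go with a single direction. ACTB, TAGLN, MYL9, ARPC1B, FSCN1 and PDLIM2 had no window in the table.

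Total exon reads were fitted for all 13843 genes that passed the filter on low counts, and a gene was called where its adjusted P (edgeR) did not exceed 0.05. Of the 51 genes, 45 passed the filter, and 22 were lower, 14 higher and 9 not called in shNFKBIZ cells. Over all genes tested 32.8% were lower and 32.5% were higher, and nothing is read from the members' share because this contrast was known when they were chosen. Over all genes the split was 4543 lower and 4496 higher, and 3651 and 5659 when library size alone was used for scaling, while that of the members became 20 and 16. The members' median log2 fold change was -0.12, in a range of -0.85 to 1.81, against 0.004 for all genes tested. None of the 45 was lower by at least 2-fold and 1, TAGLN, was higher, where 5.12% and 3.84% of all genes were. The median size of the log2 fold change was 0.24 for the members and 0.30 for all genes tested. The libraries of the groups did not overlap in CPM (counts-per-million, scaled by library size and TMM factors) for 25 members that were lower and 14 that were higher, against 34.6% and 34.1% of all genes. In the plot of all 45 changes by role, the actins and the turnover proteins lie mostly to the left, and the LIM domain proteins mostly to the right.

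**Figure D1:**
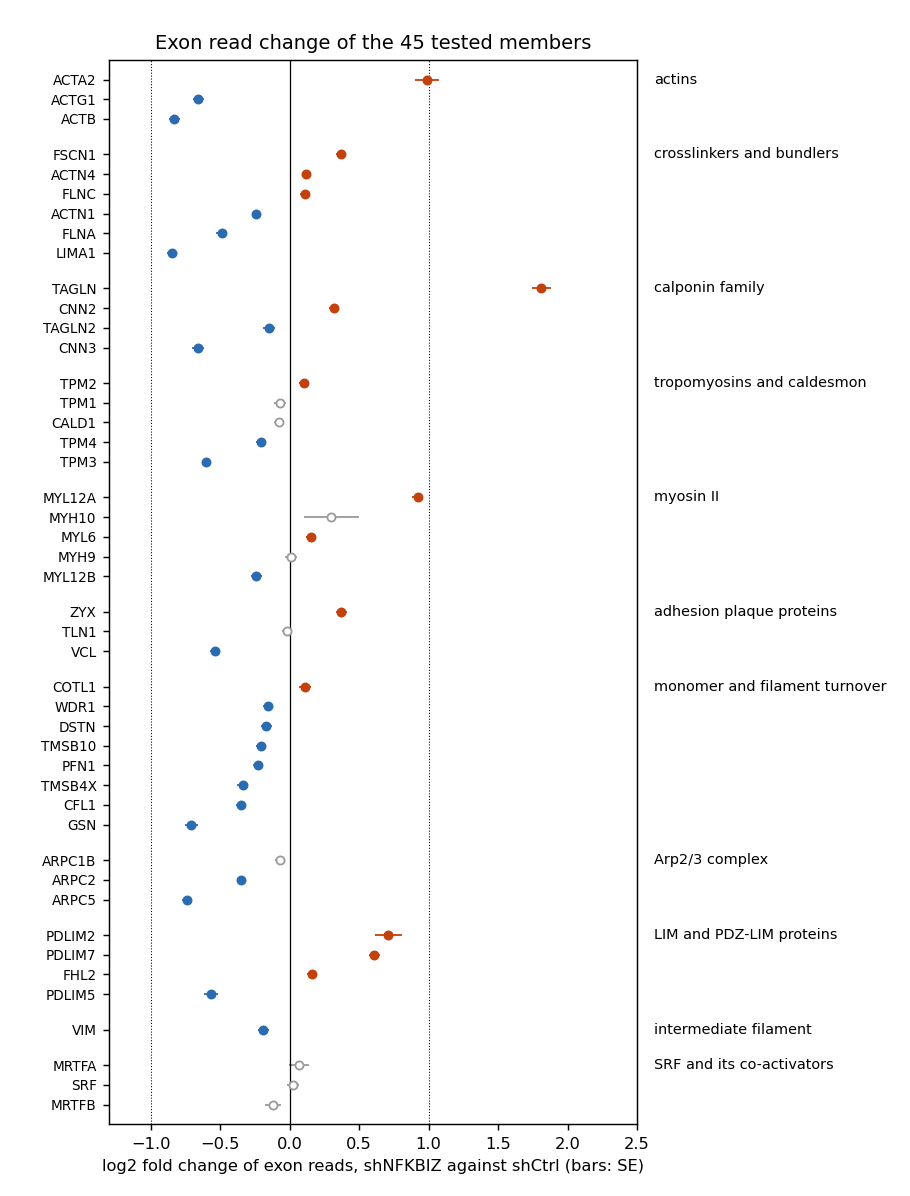
Log2 fold change of exon reads (shNFKBIZ against shCtrl) with its SE for the 45 members that passed the filter, grouped by role on the right; blue points were lower, orange points higher and open points not called, and the dotted lines mark a 2-fold change. The 22 lower genes reach -0.85 (LIMA1), and TAGLN at 1.81 is the single point beyond the dotted lines.

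The cytoplasmic actins fell and smooth muscle actin rose. ACTB (β-actin, chr7:5526409-5563902, minus strand) had 3356, 3478 and 3201 TPM in the shCtrl libraries and 2020.0, 1985 and 1966 TPM in the shNFKBIZ libraries. The groups lay far apart, and the log2 fold change was -0.83 (SE 0.039), a level of 56.2% of shCtrl. ACTG1 (γ-actin, chr17:81509413-81523847, minus strand), which builds the same filaments as ACTB in non-muscle cells, had 5105, 5371 and 4951 TPM in shCtrl and 3471, 3399 and 3446 TPM in shNFKBIZ. It fell by 0.66 on the log2 scale (SE 0.039), also without overlap between the groups. Both are among the most abundant transcripts of these cells, at rank 19 for ACTG1 and rank 29 for ACTB by mean TPM in shCtrl. ACTB and ACTG1 together made up 8152 to 8849 TPM in shCtrl and 5384 to 5491 TPM in shNFKBIZ. ACTB fell by more than ACTG1, as the ratio of ACTB to ACTG1 TPM was 0.647 to 0.658 in shCtrl and 0.571 to 0.584 in shNFKBIZ, with no overlap.

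ACTA2 (chr10:88935074-88991339, minus strand) encodes the actin of smooth muscle and of contractile fibroblasts. It had 10.1, 11.8 and 10.7 TPM in shCtrl and 24.2, 22.6 and 21.9 TPM in shNFKBIZ. The groups did not overlap and the log2 fold change was 0.99 (SE 0.085). ACTA2 was nevertheless a small share of actin mRNA, at 0.119% to 0.133% of the summed TPM of the 3 actins in shCtrl and 0.402% to 0.438% in shNFKBIZ. Of its exon reads 90.2% were unique, and the log2 fold change was 1.01 with unique reads alone. The gene overlaps STAMBPL1, which had a mean of 692 exon reads against 298 for ACTA2 and a log2 fold change of 0.48 (SE 0.063). Strand was not used in the counting, and the share of ACTA2 reads that came from STAMBPL1 was not tested.

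**Figure D2:**
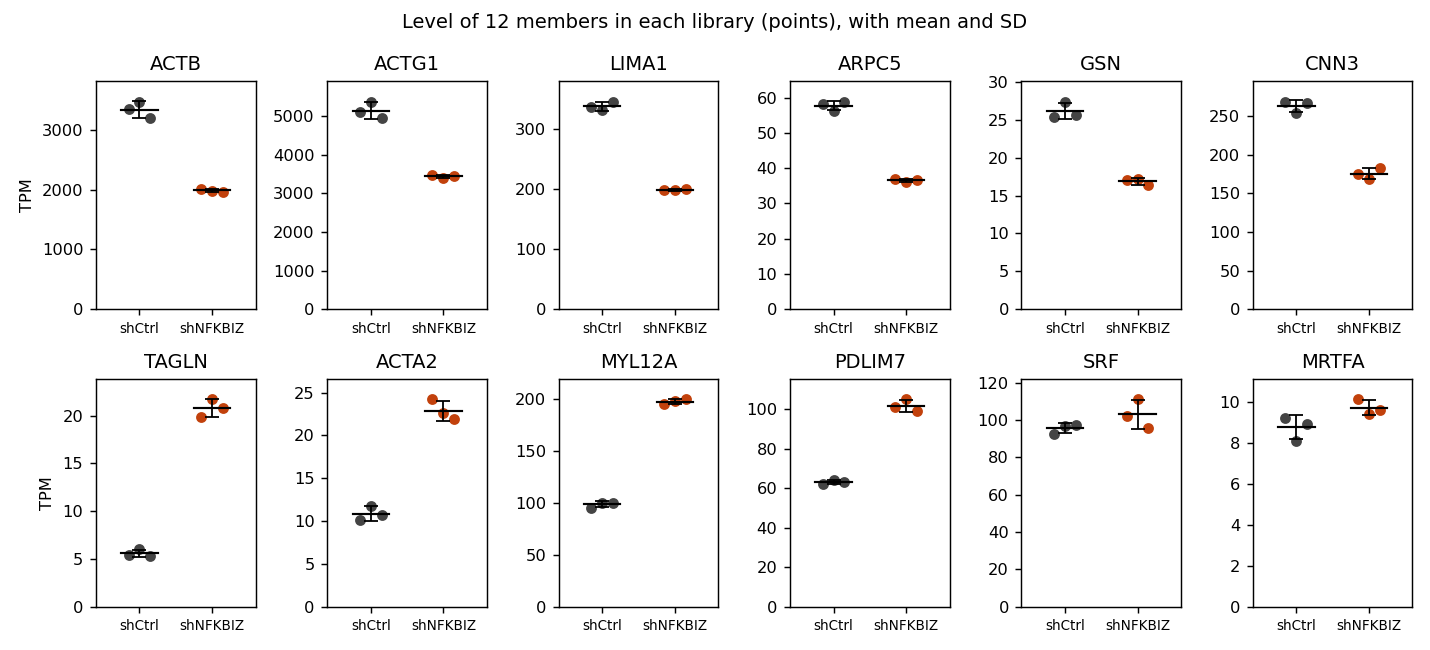
Level in TPM (vertical axes, from 0) of 12 members in each of the 3 shCtrl and 3 shNFKBIZ libraries (points), with the group mean (line) and SD (bar). ACTB, ACTG1, LIMA1, ARPC5, GSN and CNN3 are lower in every shNFKBIZ library, TAGLN, ACTA2, MYL12A and PDLIM7 are higher in every one, and the groups overlap for SRF. For MRTFA the groups do not overlap in TPM, but they overlapped in CPM and it was not called.

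Of the 8 proteins of monomer binding and filament turnover, 7 were lower and 1 was higher. GSN (gelsolin, which severs and caps filaments, chr9:121207794-121332843, plus strand) had 25.4, 27.4 and 25.7 TPM in shCtrl and 17.1, 17.2 and 16.4 TPM in shNFKBIZ. Its log2 fold change was -0.71 (SE 0.047), and the groups did not overlap. GSN overlaps RAB14, which had a log2 fold change of -0.08 (SE 0.048). The other lower genes of this role moved less. They were CFL1 (cofilin, -0.35), TMSB4X (thymosin β4, which holds monomers, -0.34), PFN1 (profilin, which feeds monomers to growing filaments, -0.23), TMSB10 (thymosin β10, -0.21), DSTN (destrin, a relative of cofilin, -0.17) and WDR1 (a cofilin cofactor, -0.16), with SEs of 0.031 to 0.039. COTL1 (a coactosin-like protein that binds filaments) was higher at 0.11 (SE 0.041). TMSB10 stood at rank 9 of all genes with a mean of 10739 ± 289 TPM in shCtrl and 9833 ± 337 TPM (SD, 3 libraries each) in shNFKBIZ, so that a small fold change covers a large number of transcripts.

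The Arp2/3 complex, which starts branches on existing filaments, was represented by 3 subunits. ARPC5 (chr1:183620846-183635783, minus strand) had 58.1, 56.3 and 58.8 TPM in shCtrl and 36.9, 36.1 and 36.6 TPM in shNFKBIZ, with a log2 fold change of -0.74 (SE 0.037) and no overlap. ARPC2 was lower by a smaller amount, at -0.35 (SE 0.031). ARPC1B was not called, at -0.07 (SE 0.034), and 17.3% of its exon reads were unique, so its level is uncertain. The remaining subunits belong to the list of other actin regulators and are named here, after their values were seen, because they complete the complex. ACTR3 (-0.88, adjusted P 4.46e-14) and ACTR2 (-0.66, adjusted P 2.70e-13), the actin-related proteins at its core, fell by about as much as ARPC5 in the edgeR test. ARPC1A (-0.37, adjusted P 1.12e-08), ARPC5L (-0.21, adjusted P 0.000128) and ARPC4 (-0.20, adjusted P 7.73e-05) were also lower, and ARPC3 was higher (0.10, adjusted P 0.0176, edgeR). Of the ARPC1A reads 29.4% were unique and of the ARPC4 reads 63.1%, so their levels are uncertain too. With unique reads alone their log2 fold changes were -0.37 and -0.19.

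Among the crosslinkers and bundlers, 3 of 6 were lower and 3 were higher. LIMA1 (EPLIN, which bundles and stabilises filaments, chr12:50175788-50283520, minus strand) had the lowest value of the 45 members tested. It had 337, 332 and 346 TPM in shCtrl and 199, 198 and 200.5 TPM in shNFKBIZ. Its log2 fold change was -0.85 (SE 0.032), a level of 55.6% of shCtrl, as low as that of ACTB within the SE. FLNA (filamin A, which links filaments into networks) was lower at -0.49 (SE 0.040) and ACTN1 (α-actinin) at -0.24 (SE 0.035). FSCN1 (fascin, the bundler of filopodia, chr7:5592816-5606655, plus strand) had 257, 255 and 254 TPM in shCtrl and 352, 357 and 338 TPM in shNFKBIZ. It was higher at 0.37 (SE 0.034) with no overlap. ACTN4 (0.12, SE 0.034) and FLNC (0.11, SE 0.038) were higher by small amounts, and for FLNC the groups overlapped in CPM. Close relatives thus differed in direction, ACTN1 from ACTN4 and FLNA from FLNC, but the differences between relatives were not tested.

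The calponin family divided in the same way. These proteins bind along actin filaments, and the calponin of smooth muscle (CNN1) restrains contraction. TAGLN (transgelin or SM22, chr11:117199370-117207464, plus strand) had 5.40, 6.03 and 5.37 TPM in shCtrl and 19.9, 21.7 and 20.8 TPM in shNFKBIZ. The groups were clearly apart, and the log2 fold change of 1.81 (SE 0.068), or 3.50-fold, was the largest of the members tested. TAGLN overlaps PCSK7, which had a mean of 1681 exon reads and a log2 fold change of 0.37 (SE 0.048), while TAGLN had 203 to 254 reads in shCtrl and 765 to 817 in shNFKBIZ. Its relative TAGLN2, which is the abundant form here at 228 TPM (SD 11.2, n = 3) in shCtrl, was lower at -0.15 (SE 0.041).

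CNN3 (the non-muscle calponin, chr1:94896949-94927223, minus strand) had 269, 254 and 267 TPM in shCtrl and 175, 169 and 183 TPM in shNFKBIZ, with a log2 fold change of -0.66 (SE 0.041) and no overlap. CNN2 (chr19:1026586-1039068, plus strand) had 261, 273 and 261 TPM in shCtrl and 343, 362 and 346 TPM in shNFKBIZ, and was higher at 0.32 (SE 0.035), again with no overlap. In shCtrl cells CNN2 and CNN3 were at nearly equal levels, and in shNFKBIZ cells CNN2 was the more abundant one in every library. CNN1, the calponin of smooth muscle, did not pass the filter, with 13, 18 and 9 exon reads in the control libraries and 5, 3 and 1 after knockdown. The summed 9 against 40 reads give a ratio of 0.237 (exact 95% interval 0.101 to 0.496, counting error only), in the opposite direction to TAGLN and ACTA2.

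Of the tropomyosins, which coat filaments and set access for myosin and cofilin, TPM3 changed most. TPM3 (chr1:154155308-154194648, minus strand) had 220.4, 216 and 212 TPM in shCtrl and 149, 149.6 and 153 TPM in shNFKBIZ, a log2 fold change of -0.60 (SE 0.034) with no overlap. TPM4 was lower at -0.21 (SE 0.032) and TPM2 higher at 0.10 (SE 0.037). TPM1 (-0.07, SE 0.040) and CALD1 (caldesmon, -0.08, SE 0.036) were not called.

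Myosin II, the motor of contraction, was divided between its light chains. MYL12A (a regulatory light chain, chr18:3247481-3256236, plus strand) had 95.2, 100.3 and 100.4 TPM in shCtrl and 195, 198 and 199.6 TPM in shNFKBIZ. Each shNFKBIZ library was well above each shCtrl library, and the log2 fold change was 0.92 (SE 0.038). Its near-copy MYL12B, which was more abundant at 734 TPM (SD 37.8, n = 3) in shCtrl, was lower at -0.24 (SE 0.038). Nearly all MYL12A reads, 99.9%, were unique. MYL6, the essential light chain, was higher at 0.15 (SE 0.032). The heavy chains were not called, MYH9 at 0.01 (SE 0.041) and MYH10 at 0.30 (SE 0.199), the latter on 32 to 42 exon reads per library. MYH10 overlaps NDEL1, which had a mean of 769 exon reads and a log2 fold change of -0.29 (SE 0.059). MYL9, the light chain of smooth muscle, had 0 exon reads in all 6 libraries, which allows up to 0.0217 CPM over the 6 libraries together (3 reads, counting error only).

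Adhesion plaque proteins link filaments to integrins. VCL (vinculin) was lower at -0.54 (SE 0.033), with 295 ± 3.68 TPM in shCtrl and 215 ± 3.61 TPM (SD, 3 libraries each) in shNFKBIZ. ZYX (zyxin, which senses tension at adhesions, chr7:143381295-143391111, plus strand) had 241, 247 and 235 TPM in shCtrl and 344, 329.6 and 316 TPM in shNFKBIZ, and was higher at 0.37 (SE 0.039) with no overlap. TLN1 (talin) was not called, at -0.02 (SE 0.036). The 3 proteins of the same structure were therefore found in each of the possible categories.

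The LIM domain proteins dock on α-actinin and on stress fibres. Of 8 such genes, 4 passed the filter, of which 3 were higher and 1 was lower. PDLIM7 (Enigma, chr5:177483394-177497606, minus strand) had 62.0, 64.1 and 63.3 TPM in shCtrl and 101, 105 and 99.3 TPM in shNFKBIZ, a log2 fold change of 0.61 (SE 0.039) with no overlap. PDLIM2, which also serves as a ubiquitin ligase for NF-κB proteins, had 1.99, 2.22 and 2.51 TPM in shCtrl and 3.61, 4.07 and 3.92 TPM in shNFKBIZ. It was higher at 0.71 (SE 0.095) without overlap, but at a low level and with 69.2% unique reads, and with unique reads alone the value was 0.67. FHL2 was higher at 0.16 (SE 0.038). PDLIM5 (ENH, chr4:94451857-94668227, plus strand) had 1487, 1498 and 1454 exon reads in shCtrl libraries and 1053, 943 and 1026 in shNFKBIZ libraries, and was lower at -0.57 (SE 0.050), with no overlap. FHL1, PDLIM1, PDLIM3 and PDLIM4 did not pass the filter, with at most 4 summed reads in either group, and PDLIM4 had none in any library.

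SRF and its co-activators were not called. SRF (chr6:43171269-43181506, plus strand) had 92.6, 97.0 and 97.5 TPM in shCtrl and 102, 111 and 95.9 TPM in shNFKBIZ, and the log2 fold change was 0.02 (SE 0.043) with overlapping groups. With library size alone as scaling SRF was called, at 0.11. MRTFA (chr22:40410281-40636719, minus strand) had 9.22, 8.09 and 8.90 TPM in shCtrl and 10.1, 9.40 and 9.59 TPM in shNFKBIZ, with a log2 fold change of 0.07 (SE 0.072). MRTFA overlaps SGSM3, which had a mean of 323 exon reads against 404 for MRTFA and a log2 fold change of -0.48 (SE 0.084). The share of MRTFA reads that came from SGSM3 was not tested. MRTFB (chr16:14071319-14266773, plus strand) had 5.64, 5.54 and 5.91 TPM in shCtrl and 5.75, 5.57 and 5.36 TPM in shNFKBIZ. Its log2 fold change was -0.12 (SE 0.058), with groups that overlapped in TPM but not in CPM. The intron reads of MRTFB were called lower (-0.43, SE 0.135), a call lost in DESeq2. With total gene reads MRTFB was called lower, at -0.17. These are mRNA levels. The activity of SRF and the place of MRTFA in the cell were not measured. VIM (vimentin, an intermediate filament protein at rank 31) was lower at -0.19 (SE 0.037).

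Intron reads, which stem mostly from unspliced transcripts, were fitted separately, and 41 members passed the filter. Of these, 8 were lower, 11 higher and 22 not called, against 19.5% lower and 19.3% higher of all 12119 genes tested, and 6 were lower and 14 higher with library size alone. Without shCtrl replicate 1 the number lower was 5. The exon and intron values went together for some genes. LIMA1 had 283, 281 and 243 intron reads in shCtrl and 153, 171 and 181 in shNFKBIZ, a log2 fold change of -0.77 (SE 0.092), close to that of its exon reads. GSN had 231, 225 and 222 against 118, 136 and 131 intron reads (-0.91, SE 0.098). VCL had 1220, 1380 and 1277 against 754, 751 and 761 intron reads (-0.86, SE 0.057), a larger fall than in exon reads. CNN3, TPM3, TMSB10 and PDLIM5 were also lower in both, and CNN2, TPM2, MYL6, FLNC, ZYX, FHL2 and PDLIM7 were higher in both. In DESeq2 the intron calls of CNN3, TPM3, PDLIM5, TPM2, PDLIM7 and MRTFB were lost.

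The fall of the cytoplasmic actins was not seen in their intron reads. ACTB had 20, 18 and 15 intron reads in shCtrl and 30, 27 and 24 in shNFKBIZ (log2 fold change 0.52, SE 0.258, not called). ACTG1 had 22, 41 and 24 against 37, 59 and 35 (0.50, SE 0.228, not called). These counts are few for genes of this abundance, so that only large changes could be seen. The difference between the exon and intron log2 fold changes was -1.34 (SE 0.245) for ACTB and -1.15 (SE 0.208) for ACTG1. For FLNA, with 216, 291 and 218 intron reads in shCtrl and 305, 392 and 309 in shNFKBIZ, the intron value was higher (0.38, SE 0.093) while the exon value was lower. ACTN1 (intron 0.28, SE 0.061) and WDR1 (intron 0.39, SE 0.071) showed the same opposition, and CALD1 was higher in intron reads (0.55, SE 0.061) but not called in exon reads.

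Over the 41 members with both measures, the exon change was below the intron change for 17, above it for 5 and not called for 19. Over all 11025 genes 15.7% were below and 13.1% were above, and the median difference was -0.20 for the members and -0.003 for all genes. The genes with the exon change above were ACTA2 (0.93, SE 0.265), MYL12A (0.50, SE 0.183), VCL (0.34, SE 0.062), TMSB10 (0.30, SE 0.101) and ACTN4. They are named after their values were seen. The share of intron reads among gene reads was 7.16% to 7.46% in shCtrl and 7.63% to 8.15% in shNFKBIZ libraries, and its part in these differences was not tested. The plot of exon against intron changes shows ACTB and ACTG1 at the lower right, apart from LIMA1 and GSN near the diagonal.

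**Figure D3:**
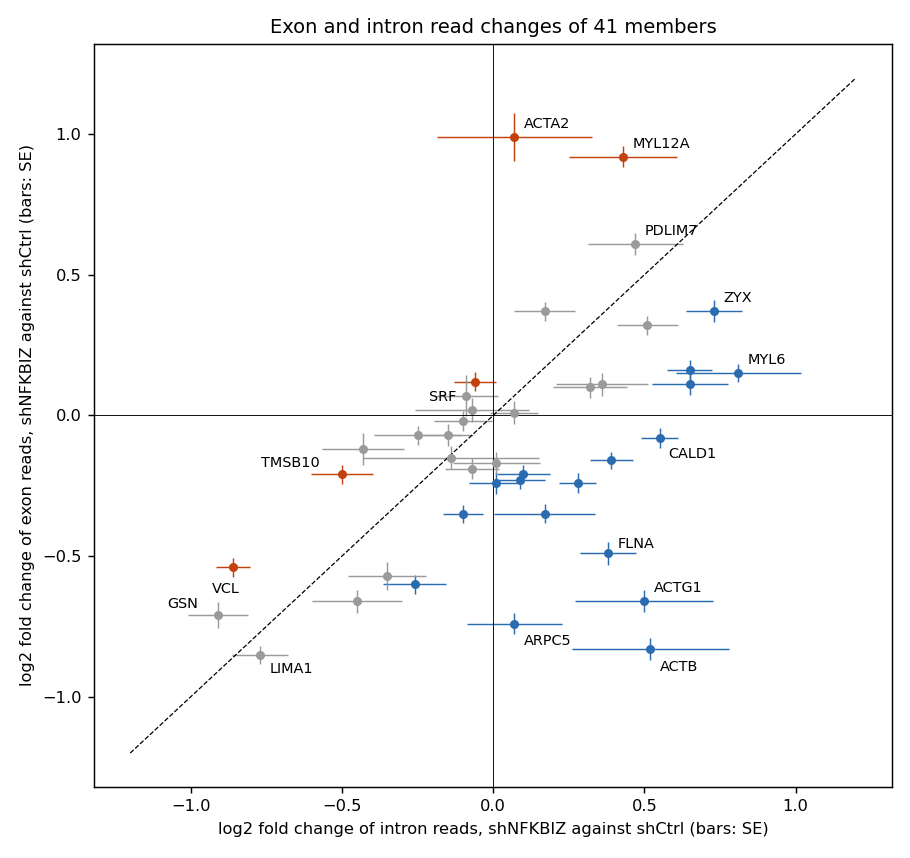
Log2 fold change of exon reads (vertical) against that of intron reads (horizontal) for 41 members, both shNFKBIZ against shCtrl with SE bars; on the dashed line both are equal, and points are blue where the exon change was called below the intron change (17), orange where above (5) and grey where neither (19). ACTB lies at 0.52 on the intron axis and -0.83 on the exon axis, LIMA1 at -0.77 and -0.85.

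ACTB was next set beside 20 other genes often used as references. Of these, 9 were lower, 7 higher and 4 not called (median log2 fold change 0.04), against 32.8% lower and 32.5% higher of all genes. With library size alone 6 were lower and 11 higher. YWHAZ (a 14-3-3 protein) fell by 0.62 (SE 0.037, adjusted P 3.53e-12), PGK1 (a glycolytic kinase) by 0.60 (SE 0.032, adjusted P 3.81e-13) and GAPDH (a glycolytic dehydrogenase) by 0.46 on the log2 scale (SE 0.039, adjusted P 1.09e-09, all edgeR). PPIA (cyclophilin A) was lower at -0.17 (SE 0.033, adjusted P 0.000118, edgeR) and HPRT1 (a purine salvage enzyme) at -0.12 (SE 0.045, adjusted P 0.0284, edgeR), and the HPRT1 call was lost in 6 of the alternatives. TBP (0.31, SE 0.069, adjusted P 0.000474), RPL13A (0.29, SE 0.032, adjusted P 5.26e-08) and RPL37A (0.24, SE 0.032, adjusted P 9.79e-07, all edgeR), a general transcription factor and a pair of ribosomal proteins, were higher. ACTB had the lowest value of the 22 genes when both actins were included and ACTG1 the next, but the order of ACTG1, YWHAZ and PGK1 lies within their SEs.

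**Figure D4:**
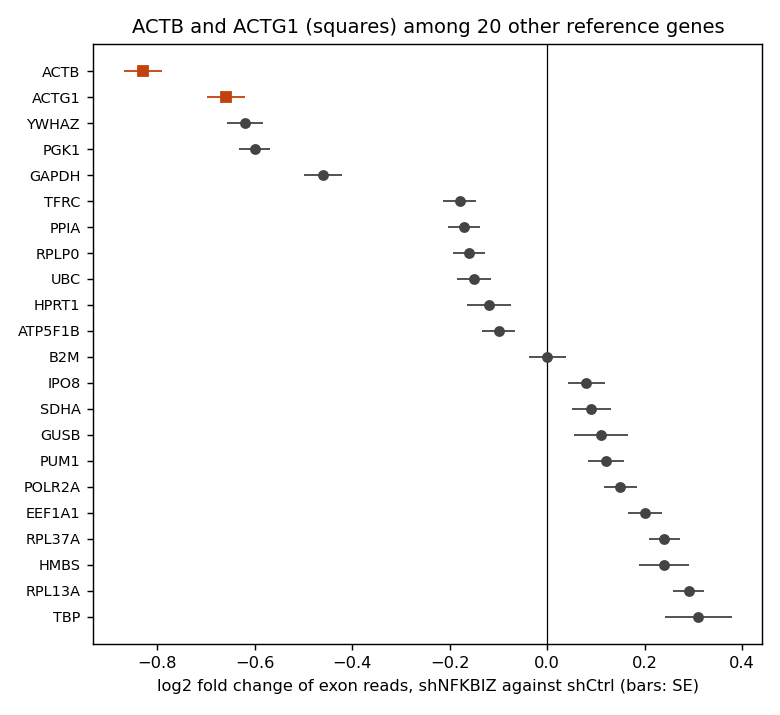
Log2 fold change of exon reads (shNFKBIZ against shCtrl) with its SE for ACTB and ACTG1 (squares) and 20 other genes used as references (circles), in order. ACTB at -0.83 and ACTG1 at -0.66 are the lowest, and TBP at 0.31 is the highest.

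The choice of reference sets the apparent size of the knockdown. Relative to ACTB, NFKBIZ exon reads were 16.5, 16.5 and 20.6 per 1000 ACTB reads in shCtrl and 9.10, 9.49 and 9.09 in shNFKBIZ, a 1.93-fold lower ratio (log2 -0.95, SE 0.107). Relative to ACTG1 the ratio was 2.17-fold lower and relative to GAPDH 2.49-fold lower. With PPIA it was 3.05-fold, with HPRT1 3.16-fold, with RPL37A 4.06-fold and with TBP 4.25-fold lower. With TMM scaling over all genes NFKBIZ was 3.43-fold lower (log2 fold change -1.78, SE 0.058, adjusted P 7.20e-17, edgeR). The knockdown was seen with every one of these references, and the smallest value came from ACTB.

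Other genes of actin regulation were taken from a list of 48 that holds no member. Of 43 tested, 27 were lower and 11 were higher, against 32.8% and 32.5% of all genes, with a median log2 fold change of -0.17, and the number higher was 7 without shNFKBIZ replicate 1 or replicate 3. Larger falls than any among the members tested were found here. PLS1 (a plastin that bundles filaments) had a log2 value of -2.09 (adjusted P 1.05e-13, edgeR), and its level went from 15.7 ± 0.593 to 3.88 ± 0.727 TPM (SD, 3 libraries each). PALLD (palladin, a stress fibre scaffold) was lower at -1.92 (SE 0.098, adjusted P 1.75e-13, edgeR). ENAH (-1.79), LCP1 (-1.41) and MYO10 (-1.17) were also lower by at least 2-fold, and are named after their values were seen. TLN2 (a second talin, 0.70, adjusted P 8.42e-09), LMO7 (0.66, adjusted P 1.90e-09) and PXN (paxillin, an adhesion adaptor, 0.46, adjusted P 2.74e-11, edgeR) were higher.

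Genes listed as SRF targets outside the set were divided into muscle genes and immediate early genes. A CArG box was found for 7 of 17 muscle genes and 2 of 13 immediate early genes with a promoter window. Control of these genes by SRF was not tested. Of 24 muscle targets 11 were tested, with 6 lower and 4 higher, against 32.8% and 32.5% of all genes, and a median of -0.44. The other 13 did not pass the filter on low counts. SYNPO (synaptopodin, -1.48, adjusted P 1.19e-14), CSRP1 (a LIM protein, -1.35, adjusted P 9.19e-15) and AMOTL2 (-0.70, adjusted P 8.54e-14, edgeR) were lower. MYLK (myosin light chain kinase, 2.21, adjusted P 3.62e-11, at 0.186 TPM in shCtrl and 0.903 TPM in shNFKBIZ cells), TNS1 (tensin, 1.16, adjusted P 6.13e-17) and TGFB1I1 (an adhesion adaptor, 0.32, adjusted P 0.000961, edgeR) were higher. The muscle targets, like ACTA2, TAGLN and CNN1 among the members, did not share a direction, and neither did the genes tested as a whole.

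Of 19 immediate early genes, which respond to serum and growth factors within minutes, 16 were tested. Among these, 8 were lower and 4 higher (median -0.05), against 32.8% and 32.5% of all genes. With library size alone the counts were 7 and 6. IER3 fell from 629 ± 6.75 to 183 ± 9.48 TPM (SD, 3 libraries each), which is -1.86 on the log2 scale (SE 0.038, adjusted P 4.19e-20, edgeR). CCN2 (-1.74, adjusted P 4.08e-20) and CCN1 (-1.63, adjusted P 3.22e-20, edgeR), secreted matrix proteins that are also targets of the YAP co-activator, fell by similar amounts. EGR1 (0.47, adjusted P 0.000690), DUSP5 (0.44, adjusted P 2.06e-08) and IER2 (0.25, adjusted P 3.25e-05, edgeR) were higher. KLF4, named after its values were seen, was higher at 1.84 (SE 0.227, adjusted P 3.11e-07, edgeR), at 2.77 TPM in shNFKBIZ cells. JUNB (-0.83, adjusted P 1.74e-12), ZFP36 (-0.96, adjusted P 2.64e-09) and MCL1 (-0.63, adjusted P 1.79e-13, edgeR), also named after their values were seen, were lower. FOS, a classical serum-induced SRF target, was not called (0.35, SE 0.299, adjusted P 0.317, edgeR). Immediate early genes were thus found in both directions, as were the genes tested as a whole.

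The other cytoskeletal systems were counted for comparison. Of 24 tubulin and intermediate filament genes 18 were tested, with 5 lower and 7 higher, against 32.8% and 32.5% of all genes. The median was 0.06, and with library size alone 4 were lower and 10 higher. TUBB2A (a β-tubulin, -1.57, adjusted P 8.42e-14), TUBA1A (an α-tubulin, -0.65, adjusted P 3.26e-11) and KRT18 (a keratin, -0.40, adjusted P 4.00e-09, edgeR) were lower, and 42.7% of the TUBB2A reads and 72.1% of the TUBA1A reads were unique. KRT8 (0.65, adjusted P 2.03e-09), the partner of KRT18, LMNB1 (a lamin, 0.61, adjusted P 1.86e-12) and SYNM (0.47, adjusted P 0.00851, edgeR) were higher. KRT8 and KRT18 thus went in opposite directions.

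Summed over the 51 genes, the level was 33235 to 34752 TPM in the shCtrl libraries and 28847 to 29742 TPM in the shNFKBIZ libraries. As a share of all exon reads the genes took 3.11% to 3.31% in shCtrl and 2.71% to 2.75% in shNFKBIZ. The sums did not overlap between the groups. ACTB and ACTG1 account for most of the difference in TPM. The most abundant members by rank in shCtrl, TMSB10 (rank 9), ACTG1, ACTB, VIM, PFN1, FLNA, CFL1 and MYL12B (rank 149), were all lower in shNFKBIZ cells. They are named after their values were seen. Members below them did not share a direction, as ACTN4 (rank 296), TPM2 (308), MYL6 (330) and CNN2 (507) were higher. Among scarce members TAGLN and ACTA2 were higher, and the few CNN1 reads were fewer in shNFKBIZ cells.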

How the data were processed

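The authors mapped the reads of 6 libraries to hg38 (Ensembl release 109) in CLC Genomics Workbench 24.0 without use of strand, with at most 10 hits per read, and deposited whole-number counts of exon, intron and gene reads, total and unique. The sequencing provider differs between the sample labels and the study's methods and is left out. TPM was calculated here from the exon length and the total exon reads. Replicate numbers did not pair the libraries (correlation of deviations 0.0207 to 0.0561).

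Total exon reads were tested with edgeR 4.0.16 in R 4.3.3 (filterByExpr, TMM, robust glmQLFit, glmQLFTest, two-sided, Benjamini-Hochberg over all genes tested, adjusted P at most 0.05). Intron reads were fitted alike, and exon against intron change as an interaction with library blocks. The SE of a log2 fold change is its size over the square root of F. That of the log2 ratio of NFKBIZ to ACTB reads was instead taken from the spread of the ratios between libraries. The main exon, intron and interaction fits were tested on simulated data first, and the alternatives below were not. P-values measure the spread between the libraries of a group.

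Named were ACTB, ACTG1, ACTA2, TAGLN, CNN1, MYL9, SRF, MRTFA and MRTFB, the 8 members with the largest change in each direction, and from each of 5 lists of other genes the 3 genes with the largest called change in each direction (mean of at least 50 exon reads), with GAPDH, PPIA, TBP, HPRT1 and RPL37A. One gene named by this rule and one further list are not reported here. The members and lists were chosen with earlier results of these data known. Alternatives tried were library size alone, RLE factors, 10 counts in every library, no filter, DESeq2 1.42.0, unique reads, total gene reads, a replicate block and leaving out each library. A comparison of protein sequences was not run. CArG boxes were searched in RefSeq promoter windows, and a gene counted once over all its windows.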

Additional observations from a re-analysis of the deposited data

How the results depend on the processing

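None of the 36 called members changed sign under any alternative tried. With library size alone the uncalled TPM1 (-0.07 to 0.02), TLN1 (-0.02 to 0.07), CALD1 (-0.08 to 0.01) and ARPC1B (-0.07 to 0.02) did. In that fit 34 of the called members were called the same way (TAGLN2 and DSTN were not), 3 members were higher by 2-fold (ACTA2 and MYL12A joined TAGLN), 11 reference genes were higher, and the members' median was -0.03. The cause lies in the scaling itself, which moved the median of all genes to 0.094. With total gene reads the median was -0.15. With unique reads 2 members were higher by 2-fold, as ACTA2 lies at the limit. With no filter 1 member was lower by 2-fold, CNN1, which then entered the test. DESeq2 called 4 members lower on intron reads, and the cause was not tested. Leaving out each library gave 22 to 25 members lower and 11 to 14 higher, 0 to 1 lower and 1 to 2 higher by 2-fold, 7 to 12 other actin regulators higher, 5 to 7 members lower on intron reads and a median of -0.15 to -0.11. The calls of COTL1, TPM2 or FLNC were lost in some of these fits. A replicate block gave 24 members lower and 14 higher and left no main call out. Of 798 values of named genes under the alternatives 789 were on the same side of the limit. HPRT1, SYNM, SRF and MRTFB were the exceptions. With unique reads, TPM in shCtrl moved by more than 1 SD for 15 of 19 named members. Low intron counts limit the intron values of ACTB, ACTG1 and ACTA2.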
